A study of Mus musculus with 5 samples.

Results

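The 7 genes described here are those of the oxygen-carrying proteins of red blood cells and of their heme supply. They are the embryonic globins Hbb-y, Hbb-bh1 and Hba-x, the adult globins Hba-a1, Hba-a2 and Hbb-b1, and Alas2. They were taken by name from the 34590 gene symbols of the count tables, and all 7 passed the filter on low counts. RNA was sequenced from cortex dissected from wild-type mouse embryos of a mixed strain background at stage E14.5 (days after conception), with 3 libraries of medial cortex and 2 of lateral cortex. No treatment was given, and the regions were the only difference the labels name. Whether libraries of 1 region are from different embryos is not stated in the labels, and the spread behind the p-values may therefore be technical. The deposited names carry a tag, C1, C2 or C3. Medial library 1 has C1, medial library 2 and lateral library 1 have C2, and medial library 3 and lateral library 2 have C3. The labels do not explain the tag.

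Hemoglobin is a tetramer of alpha-type and beta-type globin chains, each holding a heme group. In the mouse embryo the first red cells, called primitive, are made in the yolk sac. They express the beta-type globins Hbb-y and Hbb-bh1 and the alpha-type globin Hba-x beside adult globins, and Hbb-bh1 gives way to Hbb-y as these cells mature. Definitive red cells come later from the fetal liver and express the adult globins. Alas2 is the erythroid form of the enzyme that starts heme synthesis and sets its rate. In cortical tissue these transcripts are known as those of red cells inside vessels.

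Gene reads came to between 27406370 and 36460274 in the medial libraries and to 66981952 and 56147129 in the lateral ones, which were thus the deeper. A floor of 3 reads corresponded to between 0.0456 and 0.105 CPM, counts scaled to the TMM-adjusted library size. The listed marker genes of cortex had reads in every library. Medial library 1 stood apart: the 10 genes listed for meninges, the membranes around the brain, summed to 300.7 CPM there, against 14.8 and 19.6 CPM in the other medial and 14.2 and 22.4 CPM in the lateral libraries. Of the 7 tested genes of this list 0 were called in edgeR and 1 higher in DESeq2, with 1 higher at an unadjusted p under 0.05 in edgeR. Over all 16229 genes tested, 5231 had an unadjusted p under 0.05 in edgeR.

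The bases upstream of the transcription start are shown for an embryonic beta-type globin, an embryonic alpha-type globin, an adult alpha-type globin and Alas2, because red cell genes are known for sharing short promoter motifs. The windows are the 250 bases before the start in RefSeq's GRCm38.p6 annotation, 5′ to 3′ on the gene's strand. The count files use another build, mm9. RefSeq windows were matched by symbol for 5 of the 7 genes, without Hbb-bh1 and Hbb-b1. Capitals mark matches on either strand to GATAA, the core of GATA factor sites, CACCC, bound by KLF factors, CCAAT, and TATAA, the core of a TATA box.
Hbb-y (chr7:103853208-103853457, minus strand): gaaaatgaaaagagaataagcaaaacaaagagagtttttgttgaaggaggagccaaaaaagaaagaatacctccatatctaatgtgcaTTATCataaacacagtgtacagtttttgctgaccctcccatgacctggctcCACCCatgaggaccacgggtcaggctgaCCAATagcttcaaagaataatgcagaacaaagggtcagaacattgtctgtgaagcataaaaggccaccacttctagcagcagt
Hba-x (chr11:32276350-32276599, plus strand): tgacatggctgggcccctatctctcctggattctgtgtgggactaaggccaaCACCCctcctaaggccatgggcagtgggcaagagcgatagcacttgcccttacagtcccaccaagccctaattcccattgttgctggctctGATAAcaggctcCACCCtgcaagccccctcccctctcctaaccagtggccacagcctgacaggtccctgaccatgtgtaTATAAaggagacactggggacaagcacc
Hba-a1 (chr11:32283422-32283671, plus strand): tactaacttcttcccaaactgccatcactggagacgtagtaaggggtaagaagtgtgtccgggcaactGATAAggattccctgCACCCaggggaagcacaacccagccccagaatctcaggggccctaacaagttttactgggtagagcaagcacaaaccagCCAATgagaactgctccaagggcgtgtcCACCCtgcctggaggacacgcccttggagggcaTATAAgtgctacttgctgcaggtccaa
Alas2 (chrX:150547167-150547416, plus strand): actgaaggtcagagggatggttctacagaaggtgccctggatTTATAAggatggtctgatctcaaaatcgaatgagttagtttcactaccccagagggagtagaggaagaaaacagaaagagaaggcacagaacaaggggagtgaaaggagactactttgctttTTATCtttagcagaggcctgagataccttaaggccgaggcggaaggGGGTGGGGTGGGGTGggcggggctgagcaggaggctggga

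Each of the 4 windows held 1 GATAA match and at least 1 CACCC match. GATAA was found in 22.6% and CACCC in 52.0% of 32851 upstream windows of the same length. CCAAT, present in 33.8% of those windows, was found in the windows of Hbb-y and Hba-a1, and the 3 motifs were found together in 3.45% of windows. TATAA, present in 22.8%, lay 28 bases before the start of Hba-x and 27 before that of Hba-a1. It was not among the letters of the Hbb-y window. In Alas2 it lay 207 bases before the start, where it overlapped its own match on the other strand. The Hba-a2 window held the same 4 motifs as that of Hba-a1, and the windows shared a run of 247 identical bases. A match describes letters and is not a measured binding site.

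Hbb-y, the main embryonic beta-type globin at this stage of primitive cells, was lower in medial cortex. It had 70.6, 74.1 and 85.3 CPM in medial libraries 1 to 3, against 110.0 and 125.8 CPM in lateral libraries 1 and 2. The groups did not overlap. Hbb-y averaged 76.6 ± 7.65 CPM in medial cortex (SD over 3 libraries) and 117.9 ± 11.2 CPM in lateral cortex (SD over 2). The log2 fold change was −0.62 (SE 0.11) with an adjusted p of 0.0347 in edgeR's quasi-likelihood test. Hbb-y was 1 of 7 genes called lower, and 0 were called higher, with 2 and 0 at an unadjusted p under 0.05 and 2 and 0 called by DESeq2. Over all 16229 genes tested, edgeR called 5.1% lower and 4.62% higher, and DESeq2 called 11% lower and 10.7% higher. In the same edgeR fit, 5231 of the 16229 genes had an unadjusted p under 0.05 in either direction. With all libraries thinned to the depth of the smallest, Hbb-y had a log2 fold change of −0.60 (SE 0.12) and an adjusted p of 0.0384 in edgeR. The call was lost when medial library 2, lateral library 1 or lateral library 2 was left out, at edgeR adjusted p-values of 0.123, 0.0738 and 0.257. Without medial library 2 or lateral library 2, edgeR called 0 of all genes tested, with 4035 and 2456 at an unadjusted p under 0.05, so each call made with all libraries, in the lists described further on too, was lost there. In bulk tissue, fewer red cells and less globin RNA per cell cannot be told apart.

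Hba-x, the embryonic alpha-type chain also called zeta globin, had 9.47, 11.0 and 16.7 CPM in the medial libraries and 17.7 and 26.2 CPM in the lateral ones. The groups did not overlap, with medial library 3 just under lateral library 1. Its log2 fold change of −0.82 (SE 0.28) did not pass in edgeR, with an adjusted p of 0.111. In DESeq2 the value was −0.82 (SE 0.31) and the adjusted p was 0.0405. Without lateral library 2 the edgeR value was −0.51. Hbb-bh1, the beta-type globin of the youngest primitive cells, was counted 264 times over all 5 libraries. It had 0.555, 1.01 and 1.25 CPM in the medial and 1.20 and 1.76 CPM in the lateral libraries, so the groups overlapped. Its log2 fold change was −0.62 (SE 0.37, edgeR adjusted p = 0.297), and −0.33 without lateral library 2. Groups without overlap, as in Hbb-y and Hba-x, were found with medial below lateral in 26.7% of the genes tested.

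The adult globins did not pass in edgeR over all 5 libraries, and in each the groups overlapped. Hba-a1, an adult alpha-type chain, had 258.1, 171.0 and 178.0 CPM in the medial and 241.1 and 275.3 CPM in the lateral libraries. The fitted log2 value was −0.35 (SE 0.19, edgeR adjusted p = 0.264). Medial library 1 lay between the lateral libraries, and the other medial libraries lay below both. Hba-a2, the neighbouring copy of the gene, had 94.3, 63.6 and 63.9 CPM in the medial and 87.4 and 104.5 CPM in the lateral libraries (log2 fold change −0.38, SE 0.20, edgeR adjusted p = 0.244), and without lateral library 2 the fold change was −0.24. Their GENCODE M21 transcripts were identical at 537 of 538 aligned positions with a shared run of 415 bases. How reads were split between these copies is therefore uncertain, and Hba-a2 took between 26.4% and 27.5% of the pair's reads in every library.

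Hbb-b1, an adult beta-type chain, had 242.8, 157.6 and 146.5 CPM in the medial and 230.8 and 224.6 CPM in the lateral libraries. Here medial library 1 was the highest of the 5, and the log2 fold change was −0.32 (SE 0.22, edgeR adjusted p = 0.363), and −0.19 without medial library 3. Its neighbour Hbb-b2 had 105.8, 51.6 and 56.4 CPM in the medial and 69.6 and 87.3 CPM in the lateral libraries, with a log2 fold change of −0.14 (SE 0.32, edgeR adjusted p = 0.805). Mouse strains differ in their adult beta-type genes and these embryos were of mixed background, so which of these genes a read came from is uncertain. Alas2 had 7.22, 3.99 and 4.14 CPM in the medial and 5.20 and 5.81 CPM in the lateral libraries, with medial library 1 again the highest. Its log2 fold change was −0.11 (SE 0.29, edgeR adjusted p = 0.827), and it turned positive without medial library 2 (0.04) or medial library 3 (0.03).

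**Figure D1:**
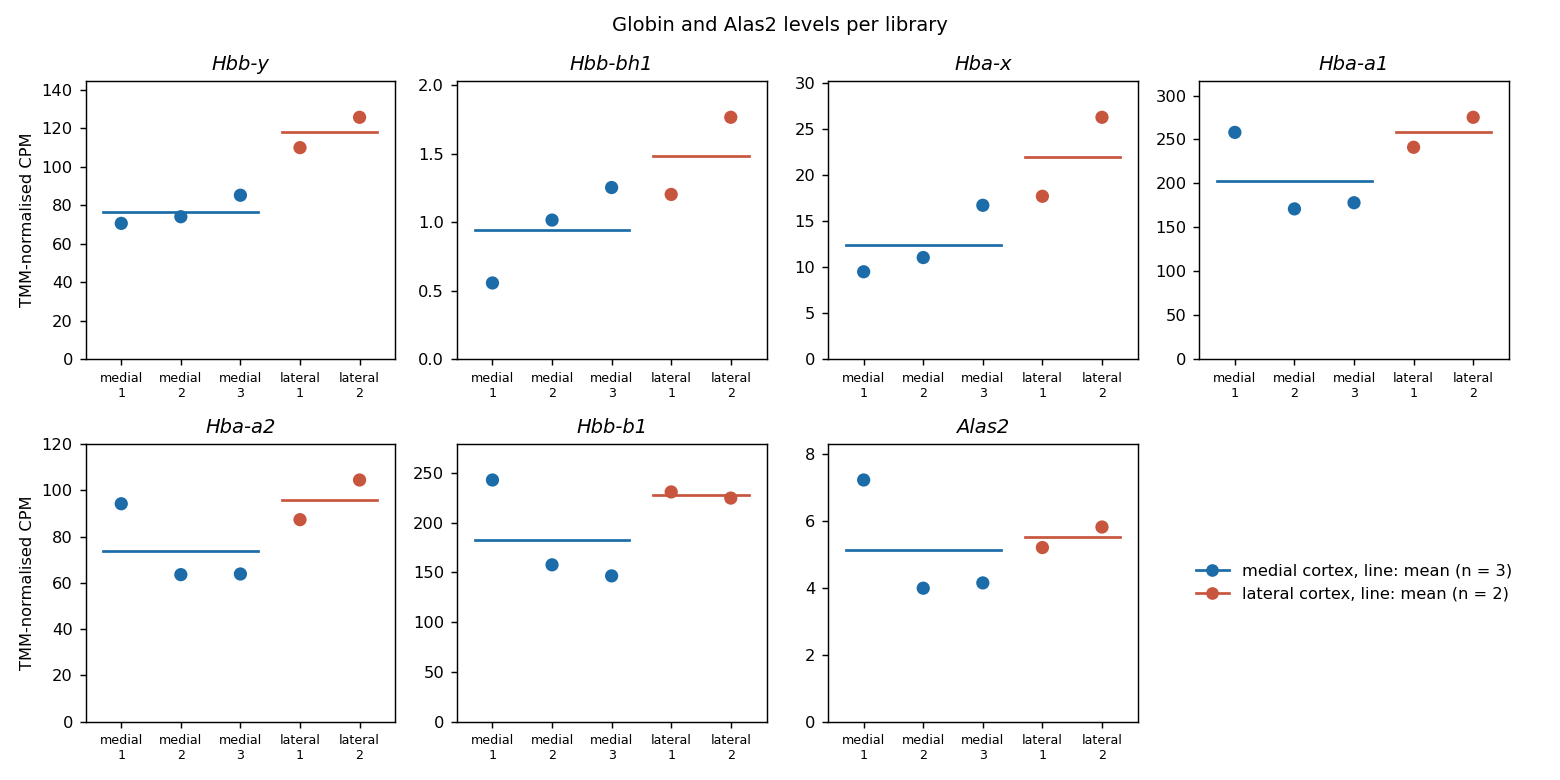
TMM-normalised CPM (y axis, linear from 0, scaled per gene) of the 7 genes in 3 medial and 2 lateral libraries (x axis); each point is a library and each line a group mean. Hbb-y lies at 70.6 to 85.3 CPM in medial and at 110.0 and 125.8 CPM in lateral libraries, while medial library 1 is as high as the lateral libraries for Hba-a1, Hba-a2 and Hbb-b1 and highest for Alas2.

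Levels per kilobase of transcript used GENCODE M21 lengths of the 6 genes that have one. Hbb-b1, at 146.5 to 242.8 CPM, has none and could not be placed. Among the 6, Hba-a1 had the highest level in every library, at 244.6 to 393.8 CPM per kb. Hba-a2 at 114.8 to 188.7 and Hbb-y at 111.5 to 198.8 CPM per kb had overlapping ranges, with Hbb-y above Hba-a2 in all libraries but medial library 1. These orders depend on the uncertain split of reads between Hba-a1 and Hba-a2. Hba-x followed at 11.8 to 32.8 CPM per kb. Alas2 at 1.96 to 3.54 and Hbb-bh1 at 0.906 to 2.88 CPM per kb had overlapping ranges at the low end. The 6 globins took between 0.0485% and 0.0727% of the gene reads of a library. Together they summed to 675.8, 478.3 and 491.6 CPM in the medial and 688.2 and 758.3 CPM in the lateral libraries.

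Medial library 1 differed from the other medial libraries in opposite directions for adult and embryonic globins. Its adult globins summed to 595.2 CPM, against 392.2 and 388.4 CPM in medial libraries 2 and 3 and 559.3 and 604.5 CPM in the lateral libraries. Its embryonic globins summed to 80.6 CPM, against 86.1 and 103.2 CPM in medial libraries 2 and 3 and 128.9 and 153.8 CPM in the lateral libraries. Medial library 1 was thus the lowest of all 5 for each embryonic globin and close to the lateral libraries for the adult ones. Microglia and other white cell genes, 16 in the list, summed to 64.6 CPM there, against 33.2 and 35.6 CPM in the other medial and 26.9 and 33.5 CPM in the lateral libraries. The part of these cells or of the meningeal genes in the globin values was not tested.

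Leaving out medial library 1, the medial library highest in adult globins, lowers their fold changes by construction. The adult globin calls in this fit, which holds 2 libraries per region, therefore add no separate support. Without medial library 1 the log2 fold changes of the adult globins and of Hbb-y lay close together. Hba-a1 stood at −0.56 (SE 0.09, adjusted p = 0.0244 in edgeR), Hba-a2 at −0.59 (SE 0.10, adjusted p = 0.0286) and Hbb-b1 at −0.58 (SE 0.08, adjusted p = 0.0189). Hbb-y stood at −0.56 (SE 0.11, edgeR adjusted p = 0.0319). With these, 4 of the 7 genes were called lower, against 6.94% of all genes tested in that fit. Hba-x (−0.66), Alas2 (−0.43) and Hbb-bh1 (−0.36) did not pass without medial library 1, with edgeR adjusted p-values of 0.158, 0.144 and 0.486. With medial library 2 or medial library 3 left out instead, 0 and 1 of the 7 were called lower. Over all genes, 0 of 16496 and 245 of 16275 tested were called lower in those fits, so calls fell over all genes too.

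Medial and lateral libraries that share a tag were compared for each member. For the summed 6 globins the log2 ratio was −0.52 for medial library 2 over lateral library 1 (C2) and −0.63 for medial library 3 over lateral library 2 (C3). Hbb-y gave −0.57 and −0.56, Hba-x −0.68 and −0.65, Hba-a1 −0.50 and −0.63, Hbb-b1 −0.55 and −0.62 and Alas2 −0.38 and −0.49 in these pairs. The pairs were less alike for Hba-a2, at −0.46 and −0.71, and for Hbb-bh1, at −0.24 and −0.50. Each of the 7 genes was lower in the medial library of both pairs. At least 26.7% of all genes tested share this, since they had every medial library below both lateral ones. The full share was not counted. With the tag as a block in edgeR, 5 genes were called lower: Hbb-y (−0.57, adjusted p = 9.3e-05), Hba-x (−0.67, adjusted p = 0.00059), Hba-a1 (−0.56, adjusted p = 0.00012), Hba-a2 (−0.58, adjusted p = 0.0002) and Hbb-b1 (−0.58, adjusted p = 7.2e-05). That fit called 16.8% of all genes lower and leaves 1 residual degree of freedom. Medial library 1 has no lateral library of its tag and adds nothing to the contrast there. The tag block and the fit without medial library 1 thus draw on the same libraries and are not separate evidence. Alas2 (−0.44, adjusted p = 0.0625) and Hbb-bh1 (−0.39, adjusted p = 0.287) did not pass with this block in edgeR.

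**Figure D2:**
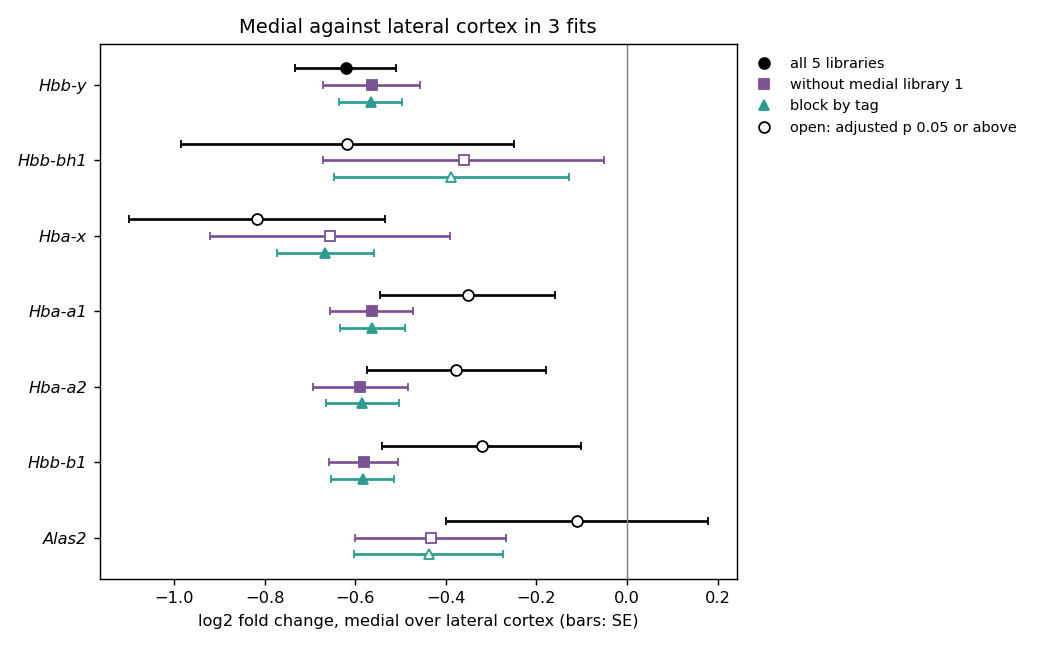
Log2 fold change, medial over lateral cortex (x axis, bars are SE), of the 7 genes (y axis) in edgeR with all 5 libraries, without medial library 1 and with the tag as a block; filled symbols have an adjusted p below 0.05. With all libraries the adult globins lie between −0.38 and −0.32, and without medial library 1 between −0.59 and −0.56. Medial library 1 is the medial library highest in adult globins, so leaving it out lowers their fold changes by construction. The contrast with the tag as a block rests on the same libraries as the fit without medial library 1.

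The balance of embryonic and adult globins was compared as a share of reads within each library, which does not depend on scaling between libraries. Embryonic globins made up 11.9%, 18.0% and 21.0% of the reads of the 6 globins in medial libraries 1 to 3 and 18.7% and 20.3% in lateral libraries 1 and 2. The medial libraries spanned a range that held both lateral values. The share averaged 17.0% ± 4.62 over the 3 medial libraries and 19.5% ± 1.10 over the 2 lateral libraries (SD), a difference of −2.53 percentage points that is smaller than the SD of the medial libraries. Without medial library 1 the medial mean was 19.5% ± 2.12 (SD, n = 2) and the difference −0.01 points. No test was run on the share, and an exact permutation test of 3 against 2 libraries cannot give a two-sided p under 0.2.

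The shares lay closer within a tag than between tags. In C2 they were 18.0% in medial library 2 (95% exact interval 17.4% to 18.7%) and 18.7% in lateral library 1 (18.4% to 19.1%). In C3 they were 21.0% in medial library 3 (20.4% to 21.6%) and 20.3% in lateral library 2 (19.9% to 20.7%). The intervals overlapped within each tag and not between C2 and C3, and medial library 1 (C1) at 11.9% (11.5% to 12.4%) lay below all. These intervals cover counting error only. The alpha-type and the beta-type genes gave the same grouping separately. Hba-x made up 2.62%, 4.49% and 6.46% of alpha-type reads in medial libraries 1 to 3 and 5.10% and 6.46% in the lateral libraries. Hbb-y with Hbb-bh1 made up 22.7%, 32.3% and 37.1% of the beta-type reads of the members in the medial and 32.5% and 36.2% in the lateral libraries.

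**Figure D3:**
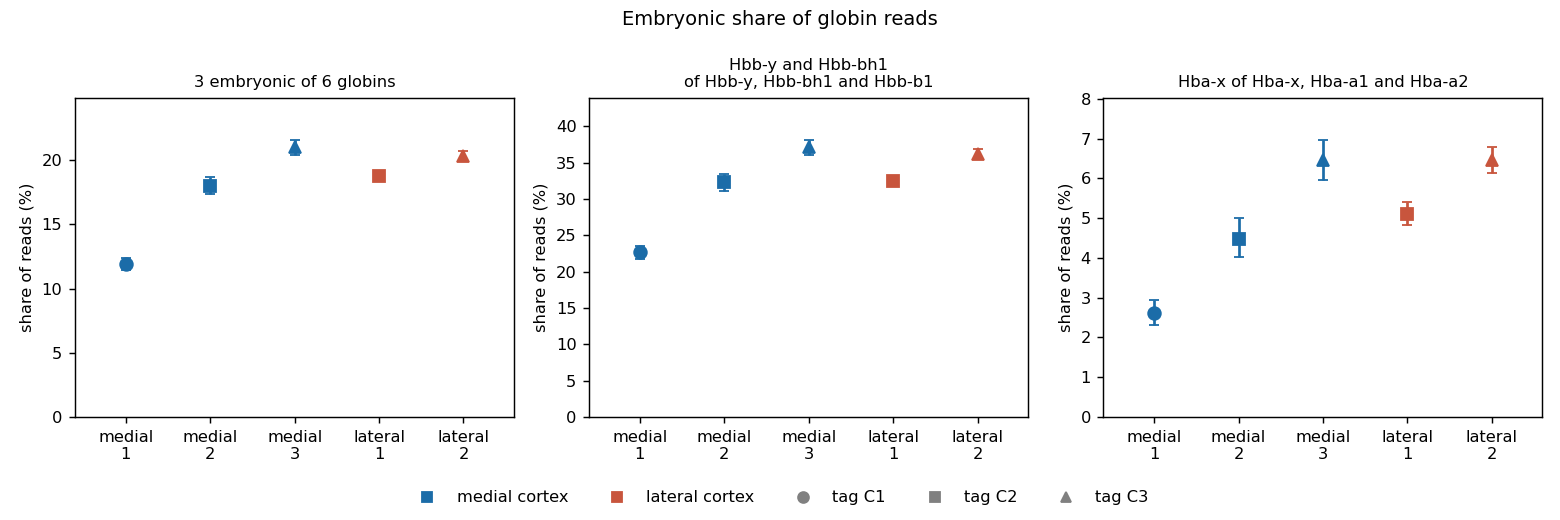
Share of embryonic globin reads in percent (y axis, from 0) in each library (x axis) for all 6 globins, for the beta-type and for the alpha-type members; bars are 95% exact binomial intervals and symbols give the tag in the deposited names. Medial library 2 and lateral library 1 lie near each other (18.0% and 18.7% of the 6 globins), as do medial library 3 and lateral library 2 (21.0% and 20.3%), and medial library 1 is lowest at 11.9%.

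Proportions within pairs of genes were compared in the same way. Hba-x made up 11.8%, 12.9% and 16.4% of the reads of Hba-x and Hbb-y in the medial and 13.8% and 17.3% in the lateral libraries, with both C3 libraries above the other 3. Hbb-bh1 was between 0.780% and 1.45% of the reads of Hbb-bh1 and Hbb-y in the medial libraries and 1.08% and 1.38% in the lateral ones. This share did not group by tag, with 1.35% and 1.08% in C2 and 1.45% and 1.38% in C3. The interval of medial library 1, which rests on 16 Hbb-bh1 reads, ran from 0.447% to 1.26% and overlapped those of all others. For the adult beta-type pair, Hbb-b2 took 30.4%, 24.7% and 27.8% of the reads of Hbb-b1 and Hbb-b2 in the medial and 23.2% and 28.0% in the lateral libraries. Again the C2 libraries were the lowest pair, the C3 libraries lay close together and medial library 1 was highest. Alas2, set against the 3 adult globins, made up 1.20%, 1.01% and 1.06% in the medial and 0.921% and 0.953% in the lateral libraries. Its groups did not overlap, but the intervals of medial libraries 2 (0.831% to 1.21%) and 3 (0.894% to 1.24%) overlapped those of both lateral libraries. Alpha-type globins took 46.3%, 46.3% and 47.2% of the reads of the 6 globins and Hbb-b2 in the medial and 45.7% and 48.0% in the lateral libraries.

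**Figure D4:**
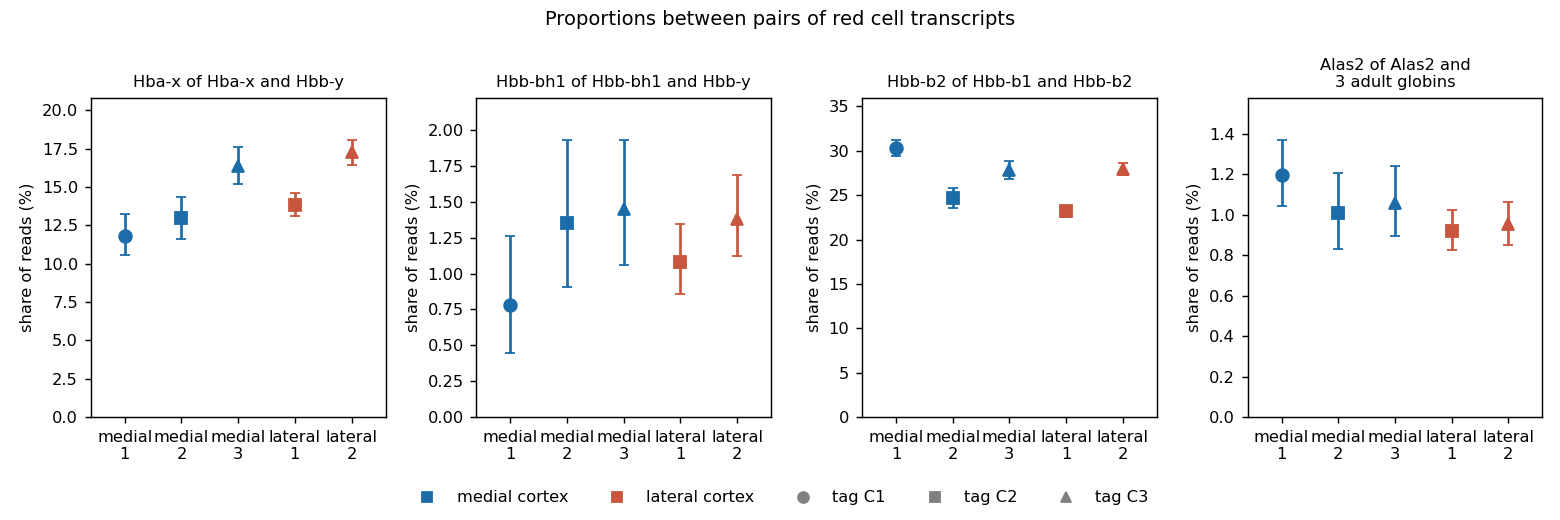
Share of reads in percent (y axis, from 0) of Hba-x beside Hbb-y, Hbb-bh1 beside Hbb-y, Hbb-b2 beside Hbb-b1 and Alas2 beside the 3 adult globins in each library (x axis); bars are 95% exact binomial intervals and symbols give the tag. Hba-x reaches 16.4% and 17.3% in the libraries with tag C3, and Hbb-b2 lies at 24.7% and 23.2% in those with tag C2. Hbb-bh1 does not group by tag (1.35% and 1.08% in C2), and Alas2 is higher in each medial library than in both lateral ones.

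Other genes listed for red cells were called in both directions. Of the 36 tested genes in 4 erythroid lists, 4 were called lower in medial cortex and 1 higher, beside 5.1% and 4.62% of all genes tested. The 36 include 10 heme synthesis genes, listed as present in all nucleated cells, of which 0 were called. The genes called are not confined to red cells by their listing. The calls were Kit, the stem cell factor receptor (log2 fold change −1.36, SE 0.25), the membrane skeleton genes Ank1 (−1.36, SE 0.23) and Add2 (−0.57, SE 0.12), Tmcc2 (−0.67, SE 0.14) and, higher, glycophorin C, Gypc (1.91, SE 0.24), with edgeR adjusted p-values from 0.0296 to 0.0445. Kit, Ank1, Add2 and Tmcc2 were each lowest in medial library 1, where the adult globins were close to the lateral libraries. Kit at 28.8, 43.3 and 54.9 CPM in the medial and 101.8 and 115.2 CPM in the lateral libraries, like Add2, is known from neurons too. Among the 8 listed marker genes of cortex 1 was called lower, Tbr1 of deep-layer neurons (−1.41, SE 0.32, edgeR adjusted p = 0.0480), and 1 higher, Emx2 of progenitors (1.32, SE 0.18, edgeR adjusted p = 0.0296). The neuronal gene Neurod6, named after its value was seen, stood at −1.45 (SE 0.36, edgeR adjusted p = 0.0565). The part of these cells in the calls was not tested. The red cell genes given next were chosen after their values were seen. The erythroid factor gene Gata1 had 9 reads in all, Car1 had 0 medial and 4 lateral reads, and Klf1 stayed between 0.258 and 0.528 CPM (log2 fold change 0.38, SE 0.38, edgeR adjusted p = 0.536). The anion exchanger gene Slc4a1 had 2.39, 1.85 and 1.95 CPM in the medial and 2.42 and 3.68 CPM in the lateral libraries (log2 fold change −0.56, SE 0.27, edgeR adjusted p = 0.208). The membrane genes Epb4.2 and Tmod1, both under 1 CPM, stood at 0.42 (SE 0.40, edgeR adjusted p = 0.513) and 1.31 (SE 0.35, edgeR adjusted p = 0.0640).

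The median log2 fold change was −0.38 over the 7 members, 0.07 over 8 erythroid factors, −0.29 over 10 red cell membrane genes, −0.05 over 8 other red cell genes and 0.15 over 10 heme synthesis genes, against 0.01 over all genes tested. None of the heme synthesis genes passed in edgeR or DESeq2. In edgeR 1 of 10 had an unadjusted p under 0.05, beside 5231 of all 16229 genes tested. Alas1, the form of the enzyme used outside red cells, stood at 0.02 (SE 0.08, edgeR adjusted p = 0.878), and the carrier gene Slc25a39 one of 0.23 (SE 0.09, edgeR adjusted p = 0.162). Among 14 factors listed for the switch between embryonic and adult globins, many of them also neuronal, 1 was called lower, beside 5.1% of all genes tested. This was Lin28b (−1.58, SE 0.31, edgeR adjusted p = 0.0383), and its listing does not make it a silencer of globins. Bcl11a, which silences embryonic globins in red cells and is abundant in cortical neurons, had 182.1, 300.6 and 330.6 CPM in the medial and 388.8 and 402.6 CPM in the lateral libraries (log2 fold change −0.55, SE 0.24, edgeR adjusted p = 0.184). Bcl11a was named after its value was seen. Of the other globins, cytoglobin, Cygb, which is not a red cell gene, was lower in medial cortex (−1.41, SE 0.23, edgeR adjusted p = 0.0318). Neuroglobin, Ngb, had 33 reads in all and myoglobin, Mb, 12.

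Vessel genes lay on the same side as the globins. Of 12 endothelial genes 11 had negative log2 fold changes, beside 48.5% of all genes tested, and their median was −0.42. In 10 of them the medial libraries lay below the lateral ones, a pattern found in 26.7% of all genes tested. Cdh5, the cadherin of endothelial junctions, was the 1 gene of 12 called, beside 5.1% of all genes called lower, at 12.2, 11.7 and 12.2 CPM in the medial and 17.5 and 18.6 CPM in the lateral libraries (log2 fold change −0.58, SE 0.11, edgeR adjusted p = 0.0368). DESeq2 called 7 of the 12 lower, beside 11% of all genes. Summed over the list, endothelial genes had 192.8, 186.4 and 182.2 CPM in the medial and 225.0 and 243.0 CPM in the lateral libraries. Medial library 1, whose adult globins were as high as in the lateral libraries, lay below both of them here. Whether vessel content had a part in the globin values was not tested.

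Of 7 mural cell genes none passed in edgeR or DESeq2, with 3 lower and 1 higher at an unadjusted p under 0.05 in edgeR. Such a p was found in 5231 of all 16229 genes tested. The median log2 fold change of the 7 mural cell genes was −0.27, with 5 negative and 2 positive, beside 48.5% negative over all genes tested. In 3 of them the medial libraries lay below the lateral ones, beside 26.7% of all genes tested. Rgs5 and Notch3, the 2 with the highest mean CPM, stood at −0.61 (SE 0.22, edgeR adjusted p = 0.116) and 0.67 (SE 0.26, edgeR adjusted p = 0.143). Without lateral library 2 these were −0.27 and 0.40. The 13 tested white cell genes had a median of 0.66 and none passed in edgeR or DESeq2, with 1 higher at an unadjusted p under 0.05 in edgeR. The most abundant, Cx3cr1 and Csf1r, stood at 0.73 (SE 0.35, edgeR adjusted p = 0.209) and 0.42 (SE 0.28, edgeR adjusted p = 0.348). Without medial library 1 they were 0.34 and 0.17. Of the platelet genes, Pf4 had 22 reads in all and Itga2b lay at 0.668 to 0.780 CPM.

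**Figure D5:**
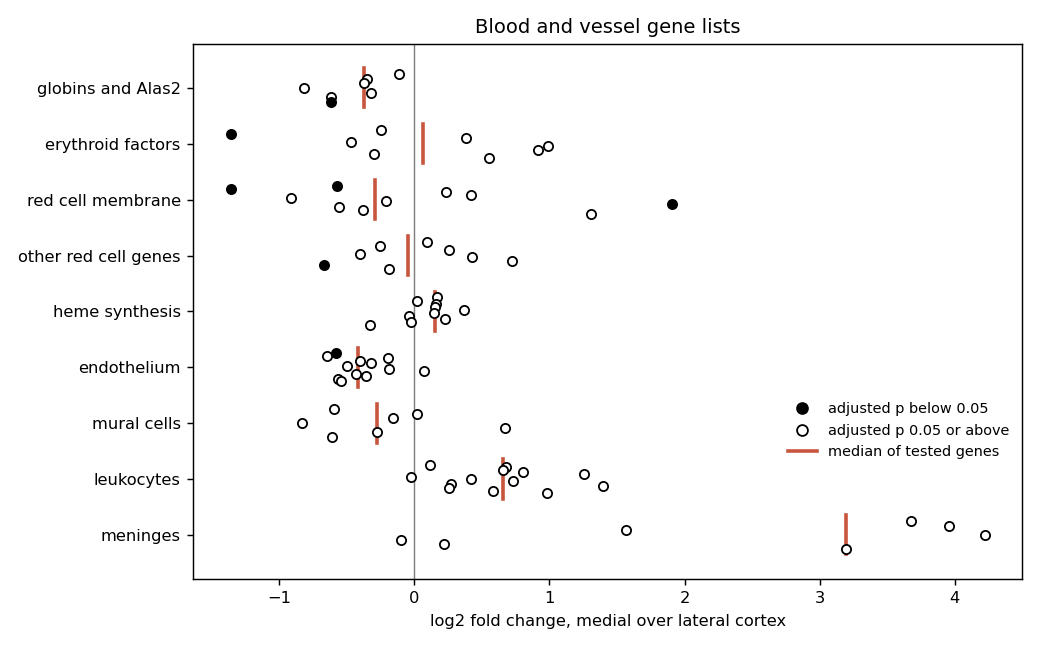
Log2 fold change, medial over lateral cortex (x axis), of the tested genes of 9 lists (y axis); each point is a gene, filled where the edgeR adjusted p is below 0.05, and the red line is the list's median. The medians are −0.38 for the globins with Alas2, −0.42 for endothelium, 0.15 for heme synthesis and 0.66 for leukocytes.

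The genes with profiles most like that of the summed globins were ranked among 13800 tested genes with a mean of at least 1 CPM. The measure was the root mean square difference over the 5 libraries between log2 profiles, each centred on its own mean. The nearest was Wscd1 at 0.0178, followed by 1110067D22Rik (0.0396), the lipid transporter gene Abca5 (0.0476), the G protein subunit gene Gnb4 (0.0558) and the growth factor gene Pdgfb (0.0590). Glipr2 (0.0636), the laminin chain gene Lama4 (0.0642), the chromatin reader gene Mllt3 (0.0643), Trp53i11 (0.0660) and the netrin gene Ntn3 (0.0693) came next. The median over all ranked genes was 0.331. Wscd1 had 53.2, 38.7 and 38.9 CPM in the medial and 55.9 and 61.1 CPM in the lateral libraries. None of these 10 genes passed in edgeR with all libraries. With 5 libraries many genes can share a profile, and this ranking describes only these libraries.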

How the data were processed

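The authors deposited whole-number read counts per gene symbol for each of 5 libraries, with no normalization. Per the labels' protocols, RNA was extracted with a column kit and the library kit selected polyadenylated RNA and kept no strand. Per the submitters' processing notes the build was mm9 and the tools were BWA, STAR and HTSeq, whose versions and roles are not given in the sources used here. The 5 HTSeq classes of unassigned reads made up 23.1% to 28.7% of each file and were left out.

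Genes were kept by edgeR's filterByExpr (count 10, total 15), scaled by TMM and tested by quasi-likelihood in edgeR (version 4.0.16, under R 4.3.3). The model held the region alone, which left 3 residual degrees of freedom. P-values were adjusted by Benjamini-Hochberg over all genes tested, with a threshold of 0.05. Each edgeR SE was derived from the fold change and its F statistic, and each DESeq2 SE is the one DESeq2 reports. Alternatives used DESeq2 1.42.0 and limma 3.58.1, other scalings and filters, thinning, leaving out each library and blocks. Shares have exact Clopper-Pearson intervals at 95%, which cover counting error only.

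The members, gene lists and tests were chosen with earlier results of these data known. Named genes were all members, up to 4 called genes per list with the lowest adjusted p or else the 2 with the highest mean, and the 10 nearest profiles; genes outside this rule are marked or are other rows of the same family or list.

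Listed symbols absent from the files are not analysed here.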

Additional observations from a re-analysis of the deposited data

How the results depend on the processing

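With all libraries edgeR called 827 genes lower and 750 higher of 16229 tested. DESeq2 called 1790 and 1737, no filter on low counts gave 496 higher, a replicate block by number gave 454 higher, and a replicate block by tag gave 2727 lower and 2634 higher. Genes called lower came to 848 in limma-voom, 824 with at least 1 CPM in 2 libraries, 774 after thinning and 622 with the number block. Leaving out 1 library gave 0 to 1137 lower and 0 to 1027 higher. Of the 7 members, 1 was called lower with all libraries, 2 in DESeq2, 5 with the tag block and 0 to 4 with 1 library left out. Of the erythroid genes, the 4 lower became 8 with the tag block and 0 to 4 with 1 library left out. The 1 higher became 3 in DESeq2, 2 with the number block, 6 with the tag block and 0 to 1 with 1 library left out. The 1 lower endothelial gene became 7 in DESeq2, 2 in limma-voom and with at least 1 CPM in 2 libraries, 3 after thinning, 0 with the number block, 8 with the tag block and 0 to 3 with 1 library left out. Signs turned for Alas2 (−0.43 to 0.036 with 1 library left out), Alas1 (−0.028 to 0.068), the meningeal collagen genes Col1a1 (−0.32 to 5.49; −0.36 with the tag block) and Col3a1 (−0.47 to 2.04; −0.48 with the tag block) and Itga2b (0.12 after thinning). The causes were not tested. The difference in embryonic share ran from −4.54 to −0.01 points with 1 library left out. Deviations from the group means correlated at 0.03 and −0.39 between libraries of the same number, which do not pair them. With 2 lateral libraries their deviations are mirror images, so the 0.39 of medial library 2 with the lateral library of its tag is the same value with its sign turned. No scaling moved the median log2 fold change of all genes by over 0.1. With 1 library left out, a region left with 1 library is assumed to vary like the other. Levels per coding length were not run.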
